A study of Mus musculus with 8 samples.

Results

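The genes described here encode the 5 NF-κB subunits and 5 IκB proteins of the mouse. They were selected by symbol as Nfkb1, Nfkb2, Rela, Relb, Rel, Nfkbia, Nfkbib, Nfkbie, Nfkbiz and Bcl3, which gave 10 of the 55487 genes listed in the deposited table. All 10 passed the filter on low values and were among the 11796 genes tested. RNA was sequenced from J774A.1 cells, a mouse macrophage line, after 24 h with LPS at 1 μg/mL (4 libraries) or with LPS at 1 μg/mL and ursodeoxycholic acid (UDCA) at 1 mM (4 libraries). LPS, from the outer membrane of Gram-negative bacteria, is sensed by macrophages through TLR4, and UDCA is a secondary bile acid. Every library came from cells given LPS, so the values compare UDCA with no UDCA under stimulation, and cells without LPS were not analysed here. The labels give the replicates as separate samples without saying whether they were separate cultures, so the p-values measure the spread between these samples, which may be technical. The values are TPM, in which the reads of a gene are divided by its length and scaled to the library, so that levels of different genes can be set side by side. TPM keeps no record of depth, and the error given is the SD between libraries.

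NF-κB is a family of dimers built from p50, p52, RelA, c-Rel and RelB. In resting macrophages most dimers are held in the cytoplasm by IκB proteins, and signals from TLR4 lead the IKK complex to phosphorylate the IκBs, which are then degraded. The dimers released enter the nucleus and switch on genes for cytokines, chemokines and survival factors, and among their targets are several of their own subunits and inhibitors. RelA, c-Rel and RelB carry transactivation domains, whereas p50 and p52 are made from the precursors p105 and p100 and have none. IκBα, IκBβ and IκBε are the classical inhibitors, and IκBζ and BCL-3 are nuclear relatives that bind dimers on DNA and can raise or lower transcription.

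The promoters are shown because several of these genes are themselves regulated by NF-κB. RefSeq windows of GRCm38.p6, from 250 bases before to 50 bases after an annotated transcript start, were matched by symbol for 7 of the 10 genes (Nfkb2, Rela, Rel, Nfkbia, Nfkbib, Nfkbie and Bcl3), while Nfkb1, Relb and Nfkbiz had no entry. Both strands were searched for the κB consensus, which runs over 10 bases as 3 G, 1 purine, 2 bases of any kind, 2 pyrimidines and 2 C. A match on the other strand appears as its reverse complement. At least 1 match was found in 5 of the 7 genes (71.4%), against 9.55% of the 27025 genes with a window and 8.46% of the 32851 windows. A match describes the letters and not a bound site. The 5 genes are given here around their matches, read 5′ to 3′ on the strand of the gene, with the matched bases in capitals.
Nfkb2, chr19:46304673-46304760, plus strand: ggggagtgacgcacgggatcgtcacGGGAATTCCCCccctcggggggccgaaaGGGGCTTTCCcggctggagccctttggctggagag
Rel, chr11:23771026-23771086, minus strand: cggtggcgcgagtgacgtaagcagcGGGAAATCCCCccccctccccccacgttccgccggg
Nfkbia, chr12:55492642-55492701, minus strand: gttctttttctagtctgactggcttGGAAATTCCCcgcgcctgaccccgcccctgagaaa
Nfkbie, chr17:45555569-45555628, plus strand: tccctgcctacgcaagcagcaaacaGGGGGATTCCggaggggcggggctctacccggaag
Bcl3, chr7:19822719-19822778, minus strand: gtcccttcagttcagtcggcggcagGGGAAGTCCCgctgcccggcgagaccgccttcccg
The match of Nfkbia began 29 bases before the transcript start, that of Nfkbie 106 bases before it, and that of Bcl3 began 2 bases after it. Rel held 2 overlapping matches, starting 92 and 91 bases upstream, and the Nfkb2 window shown held 3, starting 39, 38 and 11 bases upstream, of which the first 2 overlap. A stricter motif, with A as the purine and T at both pyrimidines, all of whose matches are also matches of the first, occurred in the windows of Nfkbia and Nfkb2 (28.6% of the 7 genes, against 1.63% of all genes with a window). For Nfkb2 it lay in the windows of later transcript starts. The window of Nfkbib, the IκB gene that changed with the smallest error, held no match to either motif.
Nfkbib, chr7:28766595-28766894, minus strand: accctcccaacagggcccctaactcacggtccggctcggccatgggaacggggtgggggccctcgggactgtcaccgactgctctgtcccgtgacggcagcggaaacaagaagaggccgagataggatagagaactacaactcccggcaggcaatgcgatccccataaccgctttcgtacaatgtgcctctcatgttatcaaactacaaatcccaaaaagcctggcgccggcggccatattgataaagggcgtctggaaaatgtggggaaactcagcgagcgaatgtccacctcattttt
Rela held none either. The 7 genes with a window did not divide by direction, since among the 5 with a match Nfkb2, Rel and Nfkbie were higher with UDCA and Nfkbia and Bcl3 were lower.

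UDCA shifted the set in both directions by less than 2-fold. Relb, Rel, Nfkbib and Nfkbie rose to between 1.55 and 1.93 times their LPS mean, Nfkb2 and Rela rose slightly, Nfkbiz, Bcl3 and Nfkbia fell, and Nfkb1 did not pass the test. Differences were tested with limma, a linear model with moderated variances fitted to log2(TPM + 1) over all 11796 genes, with Benjamini-Hochberg adjustment over all of them. At an FDR under 0.05, 6 of the 10 genes were higher (40.2% of all genes tested were) and 3 were lower (32.3% of all genes tested were), so that 9 of 10 passed against 72.5% of all genes. Scaled to 10 reference genes, a setting chosen after the values were seen, 7 were higher and 1, Nfkbiz, was lower, where 52.4% of all genes tested were higher and 23.0% lower. With a fold change of at least 2 as well, the threshold given in the study's methods, limma called 0 of the 10, where it called 17.1% of all genes tested (8.71% higher and 8.44% lower). The study reported more genes in each direction at that threshold than limma called here, so these shares are not the study's. At an unadjusted p under 0.05 the limma count was 9, and it was 0 with the fold change added. Any gene under an FDR of 0.05 is also under this p, so at least 72.5% and 17.1% of all genes tested passed, respectively. The 8 libraries separated without overlap by treatment in 8 of the 10 genes, 5 higher and 3 lower, against 66.8% of all genes tested (37.0% higher and 29.9% lower). The median absolute log2 fold change was 0.49 for the 10 genes and 0.47 for all genes tested, which are close. Fold changes are on the log2(TPM + 1) scale, where changes of weakly expressed genes come out too small, and a lower level in bulk RNA does not tell fewer expressing cells from less RNA per cell.

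**Figure D1:**
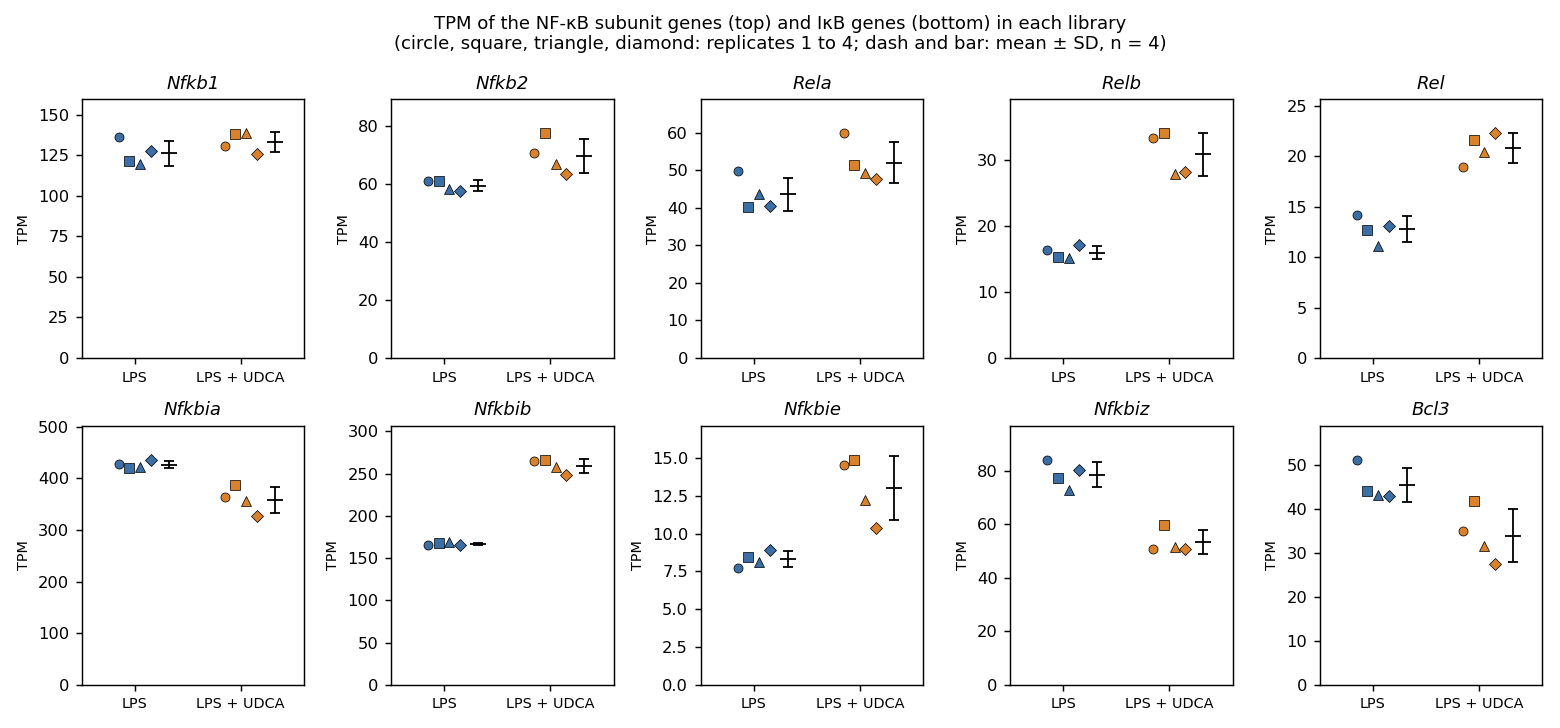
TPM (y axis, from 0) of each of the 10 genes in the 4 LPS and the 4 LPS + UDCA libraries, with the mean and SD beside the points. The groups overlap for Nfkb1 and Rela and lie apart for the other 8 genes.

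Relb, which encodes the RelB subunit that pairs mainly with p52 in the non-canonical arm, changed most. Relb measured 16.36, 15.27, 15.17 and 17.16 TPM in LPS replicates 1 to 4 and 33.34, 34.12, 27.88 and 28.27 TPM in LPS + UDCA replicates 1 to 4. The lowest UDCA library was 10.7 TPM above the highest LPS library. The means were 16.0 ± 0.948 and 30.9 ± 3.28 TPM (SD, n = 4), a ratio of 1.93 and a log2 change of 0.90 ± 0.080 SE by limma (95% interval 0.72 to 1.08, adjusted p = 7.1e-06). Relb ranked 2606 among the 11796 genes by absolute log2 fold change. It lies on chromosome 7 from 19606217 to 19629438 of GRCm38.
Rel encodes c-Rel, a subunit prominent in lymphoid and myeloid cells. Its TPM was 14.15, 12.69, 11.11 and 13.12 under LPS and 18.94, 21.57, 20.36 and 22.26 after LPS + UDCA. Every UDCA library was above every LPS library, and the means were 12.8 ± 1.26 and 20.8 ± 1.46 TPM (limma log2 change 0.66 ± 0.081 SE, adjusted p = 6e-05). Rel lies on chromosome 11 from 23736847 to 23770970, and its promoter window, like that of Nfkb2, held overlapping matches.
Rela, on chromosome 19 from 5637483 to 5648130, encodes RelA (p65), the main transactivating subunit of the canonical arm. It measured 49.87, 40.15, 43.79 and 40.59 TPM under LPS and 59.93, 51.42, 49.28 and 47.77 TPM after LPS + UDCA. Replicate 1 was the highest of its group in both treatments, and LPS replicate 1 reached into the UDCA range. The means were 43.6 ± 4.48 and 52.1 ± 5.43 TPM (log2 fold change 0.25, 95% interval 0.05 to 0.45, adjusted p = 0.028 from limma), and exact permutation of the library labels, with 70 possible arrangements, gave p = 0.086. Its limma call was lost without LPS replicate 2, 3 or 4 (adjusted p = 0.075, 0.051 and 0.073), without LPS + UDCA replicate 1 (0.067), with median-of-ratios scaling (0.098) and with no filter on low values (0.058). Without LPS + UDCA replicates 1 and 2, a setting chosen after the values were seen, the limma estimate was 0.16 on the log2 scale (adjusted p = 0.17). Without replicates 3 and 4 of that group it was 0.35 (adjusted p = 0.022), and scaled to the reference genes it was 0.47 (adjusted p = 0.0012).

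The precursor genes moved little. Nfkb1, which encodes p105 and through it p50, measured 136.53, 121.57, 119.58 and 127.32 TPM under LPS and 130.53, 137.94, 138.58 and 125.94 TPM after LPS + UDCA. The ranges crossed, with means of 126.0 ± 7.60 and 133.0 ± 6.09 TPM, and the log2 fold change of 0.08 had a 95% interval from -0.04 to 0.19 (adjusted p = 0.20 from limma). Quantile normalization gave 0.17 (adjusted p = 0.013), and median-of-ratios scaling put the value at -0.00046, while scaling to the reference genes gave 0.30 (adjusted p = 0.00064). Nfkb1 spans chromosome 3 from 135584655 to 135691547.
Nfkb2 encodes p100, which holds RelB in the cytoplasm until it is cut to p52. It measured 61.00, 60.97, 58.03 and 57.56 TPM under LPS and 70.55, 77.41, 66.81 and 63.43 TPM after LPS + UDCA. The groups were 2.43 TPM apart at their nearest libraries, and the means were 59.4 ± 1.85 and 69.5 ± 5.99 TPM (limma log2 change 0.22 ± 0.061 SE, adjusted p = 0.0091). With median-of-ratios scaling the limma estimate was 0.14 on the log2 scale (adjusted p = 0.047), and without LPS + UDCA replicates 1 and 2 it was 0.13 (adjusted p = 0.051). It was 0.31 (adjusted p = 0.0023) without LPS + UDCA replicates 3 and 4 and 0.44 (adjusted p = 9.8e-05) scaled to the reference genes. Nfkb2 lies on chromosome 19 from 46304320 to 46312385, where its exons share 11.6% of their bases with AC114539.1 and 6.52% with Psd, both on the opposite strand. Those genes rose from 3.88 ± 0.694 to 5.97 ± 0.835 TPM and from 5.75 ± 0.514 to 8.64 ± 0.817 TPM. Whether the counting used the strand is not given in the sources used here, and the part of these reads in the Nfkb2 value was not tested.

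**Figure D2:**
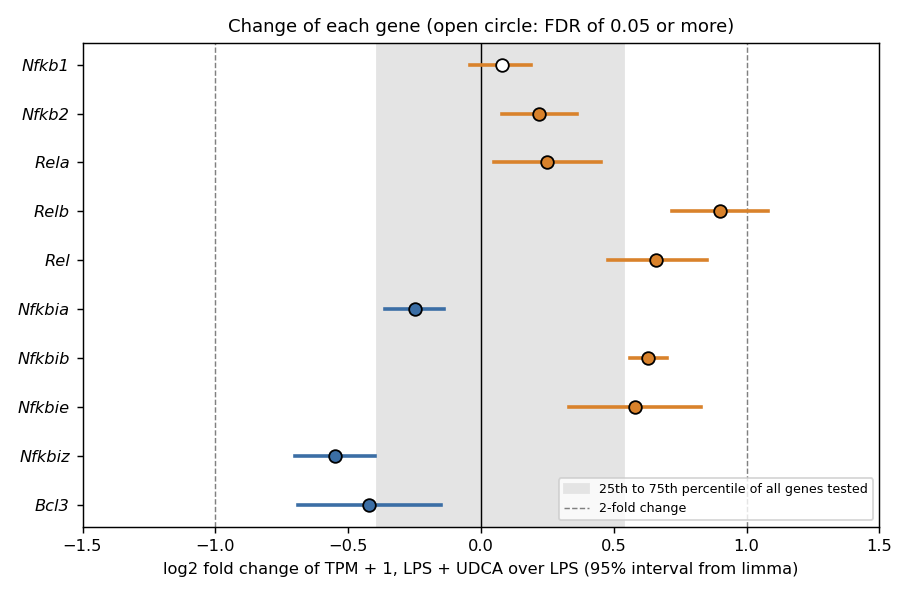
Log2 fold change of TPM + 1, LPS + UDCA over LPS, with the 95% interval from limma for each gene (x axis), beside the band between the 25th (-0.39) and 75th (0.54) percentile of all genes tested. Relb, Rel, Nfkbib and Nfkbie lie above the band and Nfkbiz and Bcl3 below it, and all 10 points lie within the dashed lines of a 2-fold change.

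The classical inhibitors moved apart from each other. Nfkbib, which encodes IκBβ, the inhibitor tied to sustained rather than rapid responses, measured 165.71, 167.78, 168.6 and 165.2 TPM under LPS and 264.38, 266.07, 257.52 and 248.01 TPM after LPS + UDCA. All UDCA libraries were at least 79.4 TPM above the LPS libraries, the widest gap of the set. The means were 167.0 ± 1.63 and 259.0 ± 8.20 TPM, a log2 change of 0.63 ± 0.032 SE by limma (95% interval 0.56 to 0.70, adjusted p = 2.2e-07). Nfkbib lies on chromosome 7 from 28758251 to 28767512 and shares 1.94% of its exonic bases with Sirt2 and 14.5% with Ccer2 on the opposite strand. Sirt2 fell from 79.8 ± 3.11 to 56.0 ± 2.68 TPM, and Ccer2 was at 0.0175 ± 0.035 and 0 TPM.
Nfkbia encodes IκBα, the inhibitor that is degraded fastest after stimulation and is made anew under NF-κB control. It measured 427.11, 420.87, 423.11 and 435.68 TPM under LPS and 364.48, 387.81, 355.94 and 326.62 TPM after LPS + UDCA. The highest UDCA library was 33.1 TPM below the lowest LPS library, and the spread was wider with UDCA, at 25.3 against 6.52 TPM. The means of 427.0 and 359.0 TPM differed by -15.9% (limma log2 change -0.25 ± 0.049 SE, 95% interval -0.36 to -0.14, adjusted p = 0.0012). With quantile normalization the limma estimate was -0.15 on the log2 scale (adjusted p = 0.015), and scaled to the reference genes it was -0.03 (adjusted p = 0.53 from limma). Nfkbia lies on chromosome 12 from 55489410 to 55492647.
Nfkbie, on chromosome 17 from 45555703 to 45563169, encodes IκBε and was the least abundant of the set. It measured 7.70, 8.47, 8.11 and 8.93 TPM under LPS and 14.55, 14.86, 12.25 and 10.37 TPM after LPS + UDCA. The UDCA libraries were all higher but spread over a range in which the highest was 1.43 times the lowest. The limma estimate was 0.58 ± 0.11 SE on the log2 scale (adjusted p = 0.001), with means of 8.30 ± 0.523 and 13.0 ± 2.11 TPM.

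Both nuclear IκB genes fell. Nfkbiz encodes IκBζ, an inducible cofactor needed for full expression of a subset of secondary response genes such as Il6 and Lcn2. It measured 83.97, 77.19, 72.70 and 80.19 TPM under LPS and 50.85, 59.85, 51.53 and 50.91 TPM after LPS + UDCA. The groups were 12.9 TPM apart, although LPS + UDCA replicate 2 stood above the other 3 libraries of its group. The means were 78.5 ± 4.77 and 53.3 ± 4.39 TPM, a difference of -32.1% (limma log2 change -0.55 ± 0.066 SE, adjusted p = 5.3e-05). Nfkbiz spans chromosome 16 from 55811375 to 55838899.
Bcl3 encodes BCL-3, which binds p50 and p52 homodimers. It measured 51.13, 44.16, 43.16 and 42.99 TPM under LPS and 35.04, 41.82, 31.49 and 27.40 TPM after LPS + UDCA. The groups did not overlap but came within 1.17 TPM of each other, and the means were 45.4 ± 3.88 and 33.9 ± 6.11 TPM (limma log2 change -0.42 ± 0.12 SE, adjusted p = 0.0098). Without LPS + UDCA replicates 3 and 4 the limma estimate was -0.24 on the log2 scale (adjusted p = 0.071), and scaled to the reference genes it was -0.20 (adjusted p = 0.13). Bcl3 lies on chromosome 7 from 19808462 to 19822770, and the antisense gene Gm16175, which covers 6.51% of its exonic bases, was listed at 0 TPM in all 8 libraries.

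Nfkbia, Nfkbib and Nfkb1 were the most abundant, in that order, and Relb, Rel and Nfkbie the least, in that order. Between them, Nfkbiz, Nfkb2, Bcl3 and Rela followed each other with LPS, and Nfkb2, Nfkbiz, Rela and Bcl3 with LPS + UDCA. With LPS, Bcl3 and Rela were the 1 pair of neighbours whose libraries overlapped. Under UDCA the overlapping neighbours were Nfkbiz and Rela, and Bcl3 and Relb, each with the first gene higher in 3 of 4 libraries.
The 5 subunit genes summed to 258.0 ± 13.7 TPM under LPS and 307.0 ± 14.9 TPM after LPS + UDCA (exact permutation test, 2-sided p = 0.029, the smallest the design allows). The 5 IκB genes summed to 726.0 ± 10.1 and 718.0 ± 44.5 TPM, a difference that did not pass the exact permutation test (p = 0.69). The makeup of the sum differed between the groups. Nfkbia took 58.8% ± 0.607 of the IκB sum under LPS and 49.9% ± 0.493 with UDCA, while Nfkbib took 23.0% ± 0.539 and 36.1% ± 1.18. Nfkbiz went from 10.8% ± 0.520 to 7.42% ± 0.369 and Bcl3 from 6.25% ± 0.482 to 4.70% ± 0.557. Among the subunits, Nfkb1 made up 48.9% ± 0.676 of the sum with LPS and 43.5% ± 1.73 with UDCA, and Relb 6.20% ± 0.354 and 10.1% ± 0.682. Rela held 16.9% ± 1.09 and 17.0% ± 1.45.

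**Figure D3:**
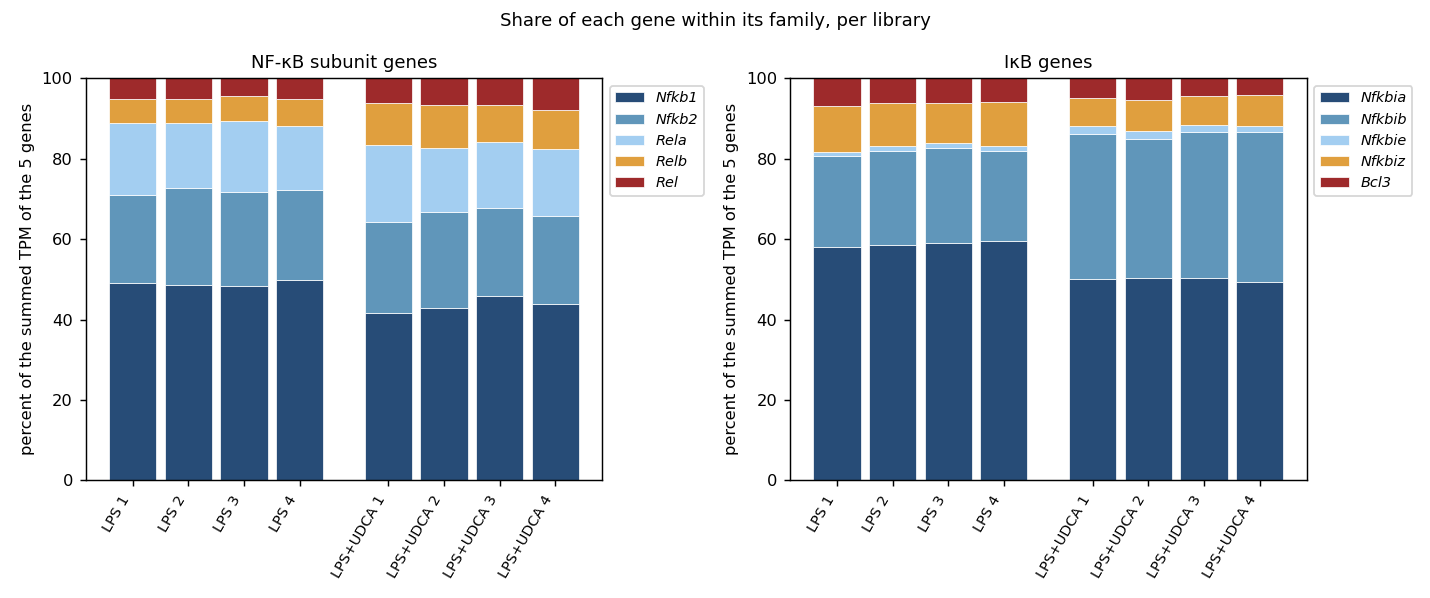
Percent of the summed TPM of the 5 subunit genes (left) and of the 5 IκB genes (right) that each gene held, with 1 bar per library. In the IκB bars Nfkbib widens from about 23.0% to 36.1% with UDCA as Nfkbia, Nfkbiz and Bcl3 narrow, and in the subunit bars Relb and Rel widen.

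Ratios within a library do not depend on how libraries are scaled to each other. A set of 6 such ratios was compared as log2 differences by an exact permutation test over 70 arrangements, 2-sided, with adjustment over the 6, where the smallest possible p is 0.029. The 6 were chosen with earlier results of these data known, and the adjustment does not cover that choice. The ratio of Relb to Rela was 0.328, 0.380, 0.346 and 0.423 under LPS and 0.556, 0.664, 0.566 and 0.592 after LPS + UDCA. All UDCA libraries were higher, by 0.69 ± 0.099 (standard error) on the log2 scale (exact permutation p = 0.029, adjusted 0.043). Nfkb2 and Relb summed over Nfkb1 and Rela, which sets the non-canonical pair against the canonical pair, rose from 0.445 ± 0.0231 to 0.542 ± 0.0359 (SD; exact permutation p = 0.029, adjusted 0.043). Taken alone, Nfkb2 over Nfkb1 (0.471 ± 0.0263 and 0.522 ± 0.0356) and Rel over Rela (0.294 ± 0.0320 and 0.404 ± 0.0630) overlapped between the groups and did not pass (exact permutation p = 0.11 and 0.086, adjusted 0.11 and 0.10).
The classical inhibitors summed over the transactivating subunits gave 7.47, 8.77, 8.56 and 8.60 under LPS and 5.73, 6.24, 6.42 and 5.95 after LPS + UDCA. The ratio was lower in every UDCA library, with a log2 difference of -0.45 ± 0.064 (standard error; exact permutation p = 0.029, adjusted 0.043). The inhibitors moved both ways, since the means of Nfkbia, Nfkbib and Nfkbie differed by -68.0, 92.2 and 4.7 TPM (UDCA minus LPS). Those of Rela, Relb and Rel were all higher with UDCA, by 8.5, 14.9 and 8.02 TPM. The nuclear IκBs summed over the classical ones fell from 0.206 ± 0.0135 to 0.138 ± 0.00936 (SD; exact permutation p = 0.029, adjusted 0.043). The ratio of Nfkbib to Nfkbia, added after the values were seen, went from 0.391 ± 0.00937 to 0.724 ± 0.0299 (exact permutation p = 0.029). These are ratios of transcripts and not of proteins, whose levels also depend on degradation and precursor processing.

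**Figure D4:**
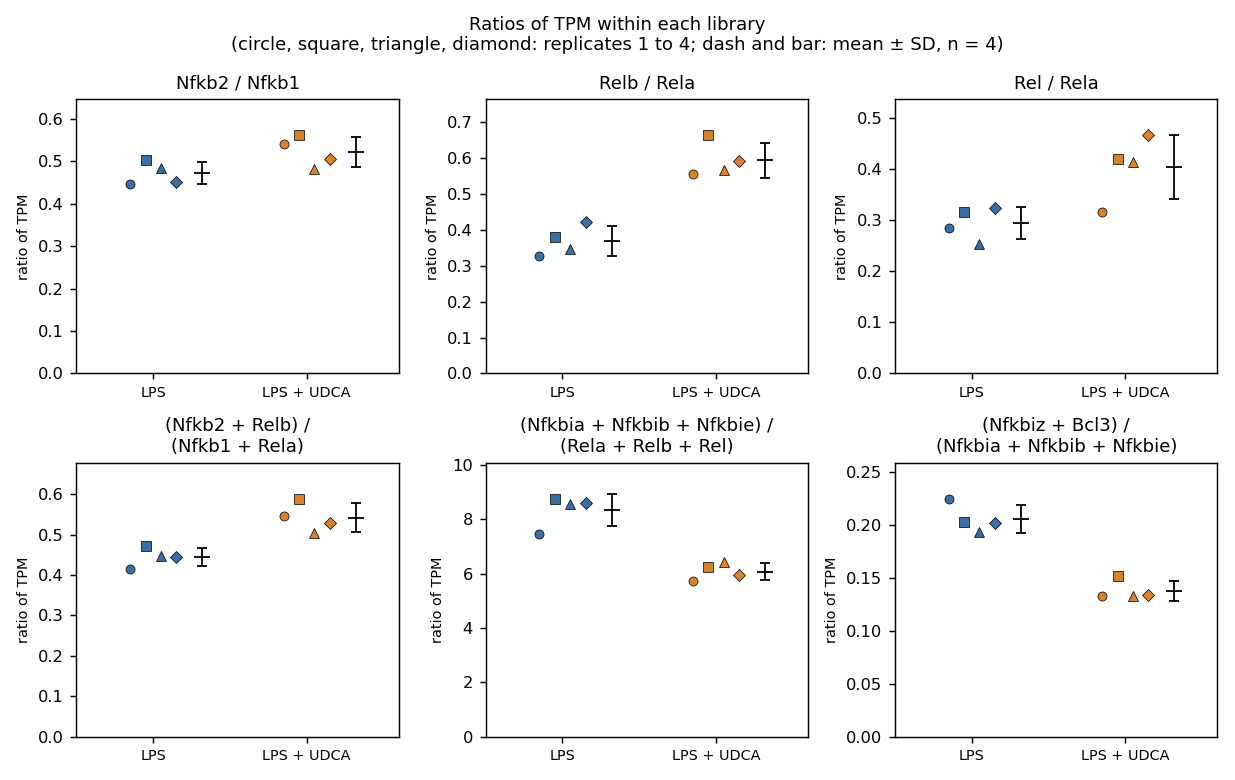
The 6 ratios of TPM (y axis, from 0), computed within each of the 8 libraries, with mean and SD. The groups overlap for Nfkb2 over Nfkb1 and for Rel over Rela and lie apart for the other 4 ratios.

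Other genes of the pathway were taken from lists by role. All 8 genes of the IKK complex and the IKK-related kinases with their adaptors passed an FDR under 0.05 from limma, 5 higher and 3 lower, where 72.5% of all genes tested passed (40.2% higher and 32.3% lower). Their median log2 fold change was 0.68 against 0.082 for all genes tested. Ikbkg, the regulatory subunit NEMO, rose most of the 8, from 27.7 ± 0.775 to 98.8 ± 4.83 TPM (log2 fold change 1.80, adjusted p = 3.7e-09 from limma). It shares 5.15% of its exonic bases with G6pdx on the opposite strand, which fell from 179.8 ± 1.67 to 100.1 ± 7.95 TPM. The catalytic subunits went opposite ways, with Chuk (IKKα) at 11.9 ± 1.74 and 19.2 ± 2.49 TPM (log2 fold change 0.65) and Ikbkb (IKKβ) at 23.7 ± 0.686 and 16.2 ± 1.08 TPM (log2 fold change -0.52). Among the related kinases, Tbk1 rose (log2 fold change 0.93) and Ikbke fell (-1.05), with Ikbke at 26.6 ± 2.38 and 12.4 ± 1.80 TPM. Without LPS replicate 4 or without LPS + UDCA replicate 1, Ikbke no longer passed the 2-fold threshold. Of the adaptors of those kinases, Tank and Azi2 rose (0.94 and 0.72) and Tbkbp1 fell (-0.32).
Between TLR4 and IKK, 11 of 23 genes were higher and 9 lower at an FDR under 0.05, against 40.2% and 32.3% of all genes tested. By at least 2-fold 4 were higher and 0 lower, against 8.71% and 8.44% of all genes tested. Ticam2, the adaptor TRAM, was the highest of them (6.91 ± 0.847 and 20.2 ± 0.703 TPM, log2 fold change 1.43), and 15.7% of its 31-base words also occur in another gene. Its exons share 14.5% of their bases with Tmed7 on the same strand, which rose from 51.3 ± 5.22 to 63.8 ± 3.83 TPM. The part of Tmed7 reads in the Ticam2 value was not tested. In the non-canonical arm 7 of 10 genes were higher and 2 lower, 3 and 1 of them by at least 2-fold, beside the same shares of 40.2%, 32.3%, 8.71% and 8.44% over all genes tested. The receptor gene Cd40 was highest (log2 fold change 2.54) and Traf3ip3 lowest (-1.34). Of the genes for IκB and precursor turnover, 8 of 11 were higher and 2 lower (40.2% and 32.3% of all genes tested), with Cul1, the scaffold of the ubiquitin ligase that marks IκBs, at 13.3 ± 1.72 and 38.6 ± 3.53 TPM (log2 fold change 1.47). The ubiquitin-editing feedback regulators gave 5 of 12 higher, 3 lower and 4 that did not pass, against 40.2% higher and 32.3% lower over all genes tested. Tax1bp1, an adaptor of the A20 complex, rose most of them (1.52).
Nuclear cofactors and RelA regulators gave 7 of 18 higher and 9 lower (40.2% and 32.3% of all genes tested), with Crebbp, the coactivator CBP, highest (log2 fold change 1.31). The lowest was Nfkbid, which encodes IκBNS, a further nuclear IκB. Nfkbid measured 24.1 ± 1.76 TPM under LPS and 6.19 ± 0.578 TPM after LPS + UDCA, a log2 change of -1.80 by limma (adjusted p = 9.4e-08) that passed the 2-fold threshold. Its distant relative Nfkbil1 fell by 0.50 on the log2 scale (66.2 ± 1.94 and 46.6 ± 2.13 TPM). Exons of Nfkbil1 overlap Gm16181 and Atp6v1g2 on the opposite strand, by 8.19% and 8.25% of their bases. Nfkbiz, Bcl3 and Nfkbid, the nuclear IκB genes listed here, were each lower with UDCA at an FDR under 0.05, as 32.3% of all genes tested were. The Bcl3 call was lost when scaled to the reference genes and without LPS + UDCA replicates 3 and 4, as given above.
Of 33 tested NF-κB target genes, 13 were higher and 20 lower at an FDR under 0.05, and 4 and 14 of them by at least 2-fold, with a median of -0.68. Over all genes tested, 72.5% passed that FDR (40.2% higher and 32.3% lower), and 8.71% were higher and 8.44% lower by at least 2-fold. Csf3 was the lowest (log2 fold change -5.89). Bcl2a1a was the highest (1.83), although 79.6% of its 31-base words occur in another gene, so that its reads could be split between near-identical copies. Several of these targets were picked by the study from the same libraries, so the direction of the list is not independent evidence. Of 5 tested genes listed as dependent on IκBζ, 2 were higher and 3 lower at an FDR under 0.05, against 40.2% and 32.3% of all genes tested. Csf3, Ccl2 and Csf2 fell (log2 fold changes -5.89, -3.65 and -1.45) while Il6 and Lcn2 rose (1.32 and 0.73). Ccl2, Csf2 and Lcn2 were named after their values were seen, and dependence on IκBζ was not tested in these cells.

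**Figure D5:**
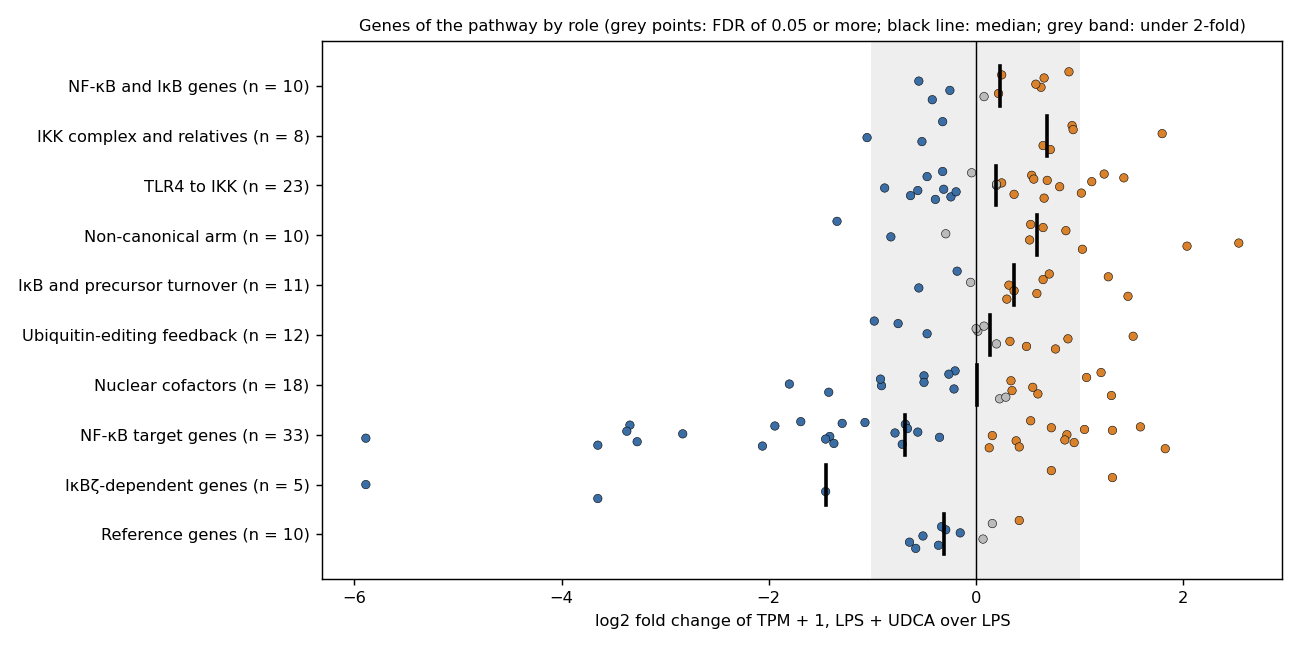
Log2 fold change of TPM + 1, LPS + UDCA over LPS, of each tested gene (points), by list, with the list median as a black line and changes under 2-fold in the grey band. The 10 NF-κB and IκB genes stay inside the band, while the NF-κB target genes reach from -5.89 to 1.83.

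Within the UDCA group most genes of the set split the libraries the same way. LPS + UDCA replicates 1 and 2 were both above replicates 3 and 4 in 7 of the 10 genes (Nfkb2, Rela, Relb, Nfkbia, Nfkbib, Nfkbie and Bcl3), a pattern picked out after the values were seen, and 21.1% of all genes tested showed it. The reverse order held in 0 of the 10, against 21.8% of all genes tested. Genes that rose and genes that fell with UDCA are both among the 7. The spread within a group was between 0.976% and 18.0% of the mean over the 10 genes and 2 groups, smallest for Nfkbib with LPS and largest for Bcl3 with UDCA.

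The TPM columns summed to between 973190 and 977485 under LPS and between 958918 and 962737 after LPS + UDCA, without overlap. Across the series, 0 of the 28 pairs of libraries were identical. The macrophage label was checked against 9 markers. Csf1r, Cd68, Itgam, Lyz2, Fcgr1, Cd14, Adgre1 and Spi1 were present, while Mertk was listed at 0 in all libraries, and Cd3e, Ly6g and Epcam, markers of T cells, neutrophils and epithelial cells, were also at 0 in all libraries. Pecam1, an endothelial marker that myeloid cells can also express, was at 0.68 to 0.95 TPM under LPS and 0.02 to 0.33 TPM after LPS + UDCA, and Col1a1, Alb and Flt3 did not exceed 0.08 TPM in any library. Of the 8 macrophage markers tested, 3 were higher and 5 lower with UDCA at an FDR under 0.05, against 40.2% and 32.3% of all genes tested. The 9 markers together summed to between 4218 and 4454 TPM under LPS and between 2052 and 2312 TPM after LPS + UDCA. The part of that shift in the values of the 10 genes was not tested. Of 10 reference genes, 7 were lower and 1 higher with UDCA at an FDR under 0.05, against 32.3% and 40.2% of all genes tested. Their median log2 fold change was -0.31, and that of all genes tested was 0.082. The part of this shift in the fold changes of single genes was not tested beyond the scaling to these genes given above. Scaled that way, the median of all genes tested was 0.282, and the log2 fold changes of Relb and Nfkbiz were 1.12 and -0.33.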

How the data were processed

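The authors deposited TPM per gene, 1 column per library, with values kept to 2 decimals. The processing notes of the submitters name Bowtie 0.12.2 and the build mm10 (GRCm38), and the counting program, the annotation and the use of strand are not given in the sources used here. Libraries were grouped by their titles. Genes were kept if they averaged 1 TPM or more over the 8 libraries (11796 genes), and their log2(TPM + 1) values entered limma 3.58.1 (R 4.3.3) with a mean-variance trend. A gene was called at an FDR under 0.05, or at that and a fold change of at least 2. The same procedure was tested on simulated data. Within-library ratios were compared by exact permutation tests with scipy 1.17.1 under Python 3.11.15. The members, lists and ratios were chosen with earlier results of these data known. All 10 genes were described, and of each list the highest and lowest gene past both thresholds were named, with all genes of the IKK list, Nfkbid and Nfkbil1. Gene positions and exon overlaps were read from the GENCODE M21 annotation (GRCm38) and promoters from RefSeq on GRCm38.p6. Words of 31 bases were used to find shared sequence. Alternatives covered scaling, filter, pseudocount, variance model, replicate block and left-out libraries. The replicate numbers are shared by the groups. The deviations of same-numbered libraries correlated by between -0.0354 and 0.146 (mean 0.0876). Those of different-numbered libraries correlated by between -0.145 and 0.162 (mean -0.0292). These ranges overlapped, and the numbers were not taken as pairs. The summed level of the markers of other cell types is not reported here.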

Additional observations from a re-analysis of the deposited data

Results flagged for a closer look

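Single libraries that stood apart were sought with Dixon's ratio, the distance from the most extreme of 4 libraries to the next, over the distance from lowest to highest. Among 34 sets of 4 values, 4 exceeded the 95% limit, where chance gives about 1.7. Nfkbiz stood highest in LPS + UDCA replicate 2, at 59.85 TPM (ratio 0.924). The same library had the highest ratio of nuclear to classical IκB transcripts, at 0.152 (ratio of gap to range 0.939). Bcl3 stood highest in LPS replicate 1, at 51.13 TPM (0.856), and that library had the lowest ratio of classical IκB to transactivating subunit transcripts, at 7.471 (0.841). The values of a gene and of a ratio that contains it are not independent.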

How the results depend on the processing

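Over 18 other ways of processing the table, Nfkb2, Relb, Rel, Nfkbia, Nfkbib, Nfkbie, Nfkbiz and Bcl3 kept their direction and an FDR under 0.05 from limma, with log2 fold changes of 0.14 to 0.26, 0.77 to 0.95, 0.54 to 0.71, -0.33 to -0.15, 0.55 to 0.71, 0.43 to 0.68, -0.63 to -0.52 and -0.52 to -0.33. Rela lost its call in 6 of the 18 (adjusted p of 0.0039 to 0.098 over all 18), and the value of Nfkb1 was -0.00046 with median-of-ratios scaling. The cause was not tested. With the replicate number as a block, 6 genes of the set were higher and 3 lower, where 39.3% and 31.7% of all genes tested were. As without the block, 0 passed a 2-fold change, and no call on the 10 genes changed. The block gave ratio differences equal to those without it, with a smallest possible p of 0.12. Settings chosen after seeing the data moved more. Scaled to the 10 reference genes, 1 of the set (Relb) passed the 2-fold change. In that setting 1 (Nfkbiz) was lower at an FDR under 0.05, as 23.0% of all genes tested were. Without LPS + UDCA replicates 3 and 4, 1 gene (Relb, log2 fold change 1.03) passed the 2-fold change. There, 903 of 11731 genes tested were higher and 973 lower past both thresholds. Over all genes tested, 1028 were higher and 995 lower past both thresholds, against 854 and 1122 with median-of-ratios scaling, 1662 and 739 scaled to the reference genes, 1444 and 1232 with a pseudocount of 0.1 and 357 and 532 with a pseudocount of 5. Among the IKK genes 0 to 1 were lower past both thresholds when 1 library was left out, and of the ubiquitin-editing regulators 0 to 1 were, with 1 under median-of-ratios scaling. TPM keeps no depth, so counting error is unknown, also for Nfkbie and Rel, which had the lowest levels of the set.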
